A study of Mus musculus with 6 samples.

Results

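The axon guidance ligands and receptors are the semaphorins, ephrins, slits, netrins and repulsive guidance molecules (Rgm), with the plexins, neuropilins, Eph receptors, Robo, Unc5, Dcc and neogenin proteins that bind them. The genes were taken by name from the protein-coding genes of GENCODE M1 on mm9, which gave 76 gene entries out of 22367 (protein-coding genes of the chromosomes with Dppa2 peaks). Efna5 and Ntng1 have 2 entries each, so that 74 symbols are represented. A gene was called Dppa2-bound when the midpoint of a peak lay within 1000 bp of the TSS of any of its transcripts, and 20 of the 76 met this definition.

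The binding data come from 1 ChIP-seq library of CGR8 cells, a feeder-free mouse ESC line kept in leukemia inhibitory factor and serum, in which Dppa2 with an N-terminal V5 tag was made from a pPyCAG-driven vector in stably transfected, puromycin-selected clones. Chromatin was precipitated with V5-agarose beads. The control was 1 library from CGR8 cells without a V5 tag, which the authors used in calling the peaks and which has no values of its own here. The tagged protein was expressed from the vector and not from the endogenous gene, and whether the cells of the ChIP came from a single clone is not given in the sources used here. The list holds 3336 peaks at TSSs with a score each, the −log10 of the p-value that MACS gave against the control, times 10. This score measures the evidence for a peak, not the amount of Dppa2 on the DNA. Per the paper's methods, Dppa2 peaks were kept only up to a p-value limit and with a minimum number of aligned reads. A gene called unbound below had no peak near a TSS that passed these limits, which does not show that Dppa2 was absent. Read depth cannot be read from the list and is unknown here. Because there is 1 library, replicate error cannot be given, no count below was tested, and the exact Clopper-Pearson intervals (95%) cover counting error only.

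Axon guidance cues steer growing axons by attraction or repulsion, and the same proteins act in blood vessel growth, cell sorting and epithelia. Semaphorins signal through plexins, with neuropilins as co-receptors for the secreted class 3 members. Ephrins stay attached to the membrane and are bound by Eph receptor tyrosine kinases on a neighbouring cell. Slits are bound by Robo proteins, the netrin Ntn1 by Dcc, neogenin and the Unc5 proteins, and Rgm proteins by neogenin. Dppa2, a protein with a SAP domain for DNA binding, is made in ESCs, the inner cell mass and the germ line.

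Promoters of these genes ran from poor to rich in the dinucleotide CpG, and 4 CpG-rich ones are shown as examples with and without a peak. They were picked by peak and CpG ratio and support no relation between them. Each line gives the 200 bases just upstream of the TSS shared by most transcripts of the gene in mm9, 5′ to 3′ on the strand of the gene, with every CpG in capitals. Slit2, at chr5:48374194-48374393 on the plus strand, had the lowest peak score of the bound genes, and its stretch lies inside the peak and holds 24 CpGs.
Slit2: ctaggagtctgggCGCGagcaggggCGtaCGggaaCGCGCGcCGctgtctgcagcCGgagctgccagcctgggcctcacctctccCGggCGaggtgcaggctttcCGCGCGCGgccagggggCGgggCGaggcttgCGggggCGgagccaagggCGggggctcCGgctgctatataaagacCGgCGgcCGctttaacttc
Unc5b, at chr10:60294330-60294529 on the minus strand, and Efna5, at chr17:63230667-63230866 on the minus strand, had no peak although their CpG ratios were the highest among the unbound genes. Their stretches hold 22 and 23 CpGs.
Unc5b: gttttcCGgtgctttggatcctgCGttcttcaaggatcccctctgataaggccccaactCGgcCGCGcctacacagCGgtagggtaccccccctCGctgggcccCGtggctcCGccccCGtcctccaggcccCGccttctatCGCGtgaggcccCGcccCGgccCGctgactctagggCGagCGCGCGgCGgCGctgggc
Efna5: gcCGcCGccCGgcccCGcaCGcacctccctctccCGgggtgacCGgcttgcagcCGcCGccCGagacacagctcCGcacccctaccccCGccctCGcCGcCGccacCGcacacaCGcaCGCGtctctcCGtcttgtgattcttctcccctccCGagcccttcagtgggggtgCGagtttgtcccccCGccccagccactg
Neo1, at chr9:58884249-58884448 on the minus strand, was bound and had the same CpG ratio as Unc5b over 1000 bp around the TSS, 0.98. Its 200 bases hold 35 CpGs. Neo1 was chosen for display after its values had been seen.
Neo1: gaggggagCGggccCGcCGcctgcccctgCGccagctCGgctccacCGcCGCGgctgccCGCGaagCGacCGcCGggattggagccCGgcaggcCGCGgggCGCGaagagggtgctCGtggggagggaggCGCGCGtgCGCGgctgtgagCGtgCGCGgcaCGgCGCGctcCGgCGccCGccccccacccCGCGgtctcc

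Dppa2 had a peak at 20 of the 76 guidance genes, a share of 26.3% (16.9 to 37.7%), where 14.2% of all protein-coding genes were bound. The share was higher among receptor than among ligand genes, a difference that was not tested. Of the 35 receptor genes 12 were bound, which is 34.3% (19.1 to 52.2%), and of the 41 ligand genes 8, which is 19.5% (8.82 to 34.9%). These intervals overlap, and the interval of the ligands includes the share of all protein-coding genes. With peaks of a score of at least 200 only, 11 guidance genes were left, or 14.5% (7.45 to 24.4%), beside 8.06% of all protein-coding genes. Of these 11, 7 were receptor genes and 4 ligand genes.

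**Figure D1:**
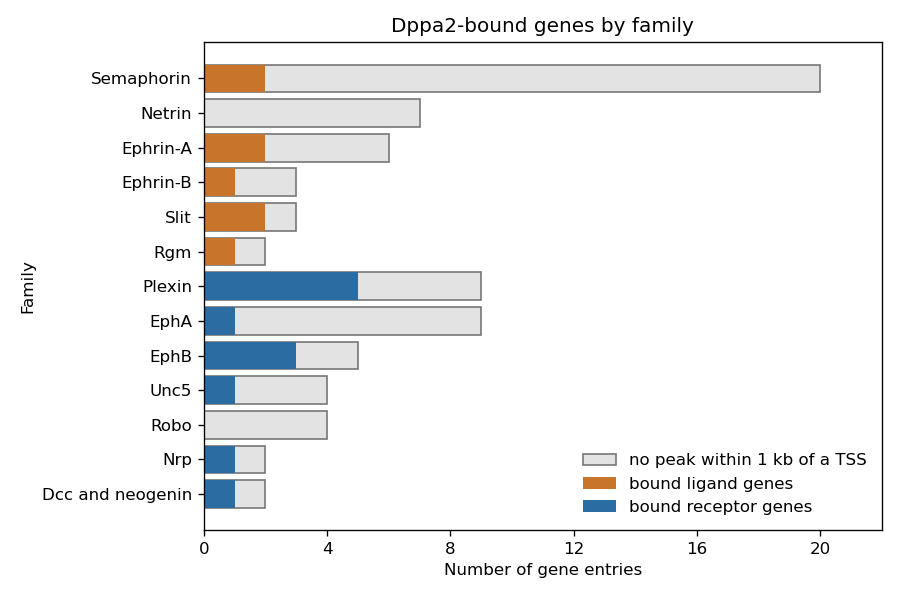
Number of gene entries in each family on the horizontal axis, with the Dppa2-bound genes coloured (orange for ligands, blue for receptors) and the genes without a peak within 1 kb of a TSS in grey. The plexins have 5 bound genes of 9 and the EphB receptors 3 of 5, whereas the semaphorins have 2 of 20 and the netrin and Robo families have none. Most families are small, and differences between them were not tested.

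The plexins, the receptors of the semaphorins, had the largest number of bound genes of any family. Peaks lay at 5 of the 9 plexin genes (55.6%, 21.2 to 86.3%), beside 14.2% of all protein-coding genes. They were at Plxna1, Plxna2, Plxnb1, Plxnb2 and Plxnc1, whereas Plxna3, Plxna4, Plxnb3 and Plxnd1 had none. Plxna1, a class A plexin that works with neuropilins, carried the highest-scoring peak of all guidance genes. This peak at chr6:89310993-89313499 was 2507 bp wide, had a score of 828 and ranked 86 among all peaks. Plxna2, of the same class, had a peak with a score of 302 at chr1:196445686-196447116, and its midpoint fell in the UTR part of exon 1, 378 bp downstream of the TSS. The 2 class A genes thus differed widely in rank, as Plxna2 stood at 1105.

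Among class B plexins, which are receptors of class 4 semaphorins, Plxnb1 had a peak of high and Plxnb2 one of low score. The score was 371 at Plxnb1 (chr9:108997155-108999243) and 122 at Plxnb2 (chr15:89010413-89011955). Plxnc1, the receptor of Sema7a, had one of the lowest scores in the list, 103, although its peak at chr10:94405852-94408314 was 2463 bp wide, nearly as wide as that at Plxna1. For a peak, a high score and a large width therefore did not go together in every gene, and over the 20 peaks Spearman's correlation between score and width was 0.275, given as a description with no p because the peaks share 1 library.

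Of the neuropilins, which lend class 3 semaphorins their binding to the plexins, Nrp2 was bound and Nrp1 was not. The Nrp2 peak (chr1:62749211-62750480) had a score of 285 and its midpoint 14 bp upstream of the TSS. For Nrp1 the nearest peak midpoint was 327 kb from the TSS, at Itgb1.

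Of the 14 Eph receptor genes, 4 were bound (28.6%, 8.39 to 58.1%), an interval that includes the 14.2% of all protein-coding genes. In the EphB class, whose members mainly bind ephrin-B ligands, 3 of 5 genes had a peak (60.0%, 14.7 to 94.7%). In the EphA class, which mainly binds ephrin-A ligands, 1 of 9 had a peak (11.1%, 0.281 to 48.2%). These intervals overlap, and the difference was not tested. Ephb2 had the second highest score of the guidance genes, 499, and the widest peak, 3402 bp at chr4:136389675-136393076, which covers 4 of the 6 annotated TSSs of the gene. Ephb6, which encodes a receptor without kinase activity, had a score of 209 at chr6:41554435-41556002 and the midpoint farthest upstream, 263 bp before the TSS. The score at Ephb3 was 193, and the peak there was the narrowest, 934 bp at chr16:21204675-21205608.

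The Ephb3 peak lay at an upstream start. The midpoint was 288 bp downstream of a TSS at 21204853 and 6027 bp upstream of the TSS shared by most transcripts, so that Ephb3 was no longer counted as bound when a single TSS per gene was used. Ephb1 and Ephb4 were unbound, with their nearest peak midpoints 152 kb and 324 kb away. Epha8 was the bound EphA gene, with a score of 194 at chr4:136511926-136513367 and the midpoint in the coding part of exon 1. Epha1, Epha2, Epha3, Epha4, Epha5, Epha6, Epha7 and Epha10 were unbound, and for Epha5, a receptor of the bound Efna2, the nearest midpoint was 3695 kb away. Epha8 and Ephb2 are neighbours on chromosome 4 with TSSs 121 kb apart, and each had a peak of its own.

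Among the receptors of netrins and Rgm proteins, neogenin and 1 Unc5 gene were bound. Neo1 had a score of 256 at chr9:58883246-58885289, with the midpoint 19 bp upstream of its only annotated TSS, and this peak was the densest in CpG of the 20, with 10.1 CpGs per 100 bp. Unc5d, a netrin receptor, had a score of 109 at chr8:30329146-30330660, close to the lowest score in the list, which is 100. Dcc, Unc5a, Unc5b and Unc5c had no peak, and the nearest midpoints were 1403 kb, 149 kb, 78.6 kb and 2391 kb from their TSSs. None of the 4 Robo genes was bound (0 of 4, interval up to 60.2%). The nearest midpoints were 5714 kb away for Robo1, 3965 kb for Robo2, 622 kb for Robo3 and 605 kb for Robo4.

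**Figure D2:**
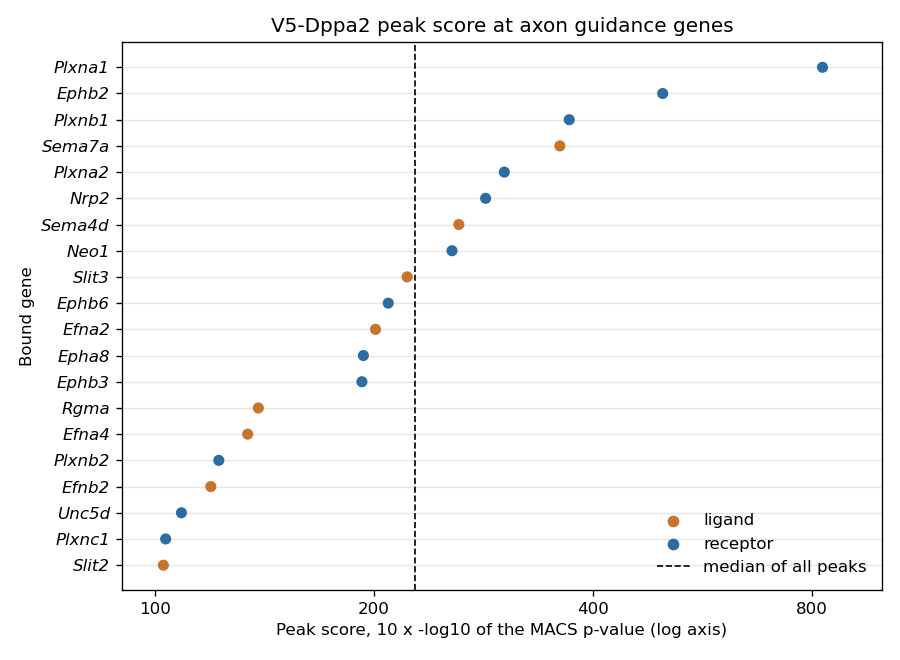
Score of the V5-Dppa2 peak at each of the 20 bound guidance genes on a log axis, with ligand genes in orange, receptor genes in blue and the median of all 3336 peaks, 228, as a dashed line. Plxna1 stands apart at 828, 8 genes lie above the median of all peaks and 7 lie under 150.

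Among the 20 semaphorin genes 2 were bound, 1 of the 6 of class 4 and the single one of class 7. This share of 10.0% (1.23 to 31.7%) is near the 14.2% of all protein-coding genes, which lies inside the interval. Sema7a, which encodes a semaphorin held on the membrane by a lipid anchor, had a score of 361 at chr9:57787313-57789258, the highest of the ligand genes. Sema4d, a transmembrane semaphorin that acts on neurons and immune cells, had a score of 262 at chr13:51887970-51889340, and this peak covers 3 of 13 annotated TSSs. Sema4a, Sema4b, Sema4c, Sema4f and Sema4g were unbound, and for Sema4c, a ligand of Plxnb2, the nearest midpoint was 40.6 kb away. All 7 genes of class 3, the secreted semaphorins, were without a peak (interval up to 41.0%). So were the 2 genes of class 5, Sema5a and Sema5b, and the 4 of class 6, Sema6a, Sema6b, Sema6c and Sema6d. In class 3 these are Sema3a, Sema3b, Sema3c, Sema3d, Sema3e, Sema3f and Sema3g.

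Of the ephrin genes 3 of 9 were bound (33.3%, 7.49 to 70.1%), an interval that includes the 14.2% of all protein-coding genes. These were 2 of the 6 ephrin-A entries, whose products carry a lipid anchor, and 1 of the 3 ephrin-B genes, whose products cross the membrane. At a score of at least 200, Efna4 and Efnb2 were no longer bound. Efna2 had a score of 201 at chr10:79641470-79642977 with the midpoint 4 bp upstream of its single TSS, the closest of all 20. Efna4 scored 134 at chr3:89141106-89142216. Efnb2, a ligand known for its part in arterial identity, had a wide peak of 2805 bp at chr8:8659394-8662198 with a score of only 119, and the peak covers 2 of its 3 annotated TSSs. Efna1, Efna3 and Efna4 lie next to each other on chromosome 3, the TSSs of Efna3 and Efna4 15.1 kb apart and those of Efna1 and Efna3 41.8 kb apart, and only Efna4 was bound. The other unbound ephrins were both Efna5 entries, Efnb1 and Efnb3, and among these the partners of bound Eph receptors had their nearest midpoints 618 kb (the longer Efna5 entry), 683 kb (Efnb1) and 72.8 kb (Efnb3) away.

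Slits, large secreted ligands that repel axons, had peaks at 2 of 3 genes (66.7%, 9.43 to 99.2%), Slit2 and Slit3. Slit1 was unbound and lay 104 kb from the nearest midpoint. Slit3 scored 222 at chr11:34934378-34935783 and Slit2 103 at chr5:48373911-48375218. Rgma, a lipid-anchored repulsive cue, had a score of 139 at chr7:80520070-80521412, whereas its relative Rgmb was unbound, with the nearest midpoint 116 kb away. Of the 2 Rgm genes 1 was thus bound (50.0%, 1.26 to 98.7%). All 7 netrin entries were unbound (interval up to 41.0%), namely Ntn1, Ntn3, Ntn4, Ntn5, both Ntng1 entries and Ntng2. The intervals for slits, Rgm genes and netrins all include the 14.2% of all protein-coding genes. Ntn1, the main netrin of the neural tube floor plate, was 31.7 kb from the nearest midpoint.

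Ligands and receptors known to bind each other were compared over 44 pairs, which were written down after the peaks were known. The bound genes Efna4 and Ephb6 are in none of these pairs, so the counts depend on which pairs were listed. Both genes were bound in 7 pairs, the receptor alone in 12, the ligand alone in 7 and neither in 18. At a score of at least 200 both genes were bound in 1 pair, Sema4d with Plxnb1, and neither in 27. The 7 pairs with both genes bound were Sema7a with Plxnc1, Sema4d with Plxnb1, Sema4d with Plxnb2, Efna2 with Epha8, Efnb2 with Ephb2, Efnb2 with Ephb3 and Rgma with Neo1. The pairs share genes, so that they are not independent. How many such pairs would follow from the shares of bound ligands and bound receptors alone was not computed. The 7 pairs are therefore a count and do not show that partners tend to be bound together. In 3 of the 10 semaphorin and plexin pairs both genes had a peak, and such pairs can only hold the 2 bound semaphorins.

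For other ligands the receptor was bound without them, or they were bound without their receptor. Nrp2 was bound while its ligands Sema3c and Sema3f were 666 kb and 197 kb from a midpoint. Slit2 and Slit3 were bound without Robo1 or Robo2, in 4 of the 6 slit and Robo pairs. Ntn1 was unbound while 2 of its 6 listed receptors, Neo1 and Unc5d, were bound. Plxna1 and Plxna2 were bound without Sema6d and Sema6a, whose nearest midpoints were 1459 kb and 539 kb away.

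By score, more of the peaks at guidance genes were in the lower than in the upper part of the list. Their median score was 205, with quartiles of 131 and 289, where that of the other bound protein-coding genes was 219, and 8 of the 20 were above the median of all peaks. A score under 150 was found at 7 of the 20 (35.0%) and at 24.5% of the other 3149 bound genes. The lowest scores of the guidance genes, 103 at Slit2 and Plxnc1, are just above the lowest score in the list, 100. A score of 100 is also the p-value limit that the paper set for Dppa2 peaks. Width had a median of 1512 bp at the guidance genes, the narrowest peak being 934 bp and the widest 3402 bp, compared with 1437 bp at the other bound genes. None of the 34306 36-mers in these 20 peaks occurs more than once in mm9.

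Peaks lay over the TSS, as the list holds peaks at TSSs, and mostly a little downstream of it. The TSS was inside the peak in 20 of 20 genes, and the midpoint was downstream in 14 and upstream in 6. The share downstream, 70.0%, was close to that of the other bound protein-coding genes, 69.3%. The median position was 210 bp downstream, and 10 of the 20 midpoints were 200 bp or more downstream (50.0%, against 38.1% of the other bound genes). At Ephb2, Sema4d, Plxna2, Sema7a, Plxna1 and Slit3 the midpoint was between 354 and 383 bp downstream. The largest distance among bound genes was 383 bp, at Ephb2, and the unbound genes nearest to a midpoint were Epha10 at 4602 bp and Ntn5 at 9656 bp. Because the list holds peaks at TSSs, it does not show whether other peaks lay just beyond the 1000 bp limit. By annotation, 6 midpoints fell in introns, 6 in UTRs, 3 in coding exons and 5 just outside the gene.

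**Figure D3:**
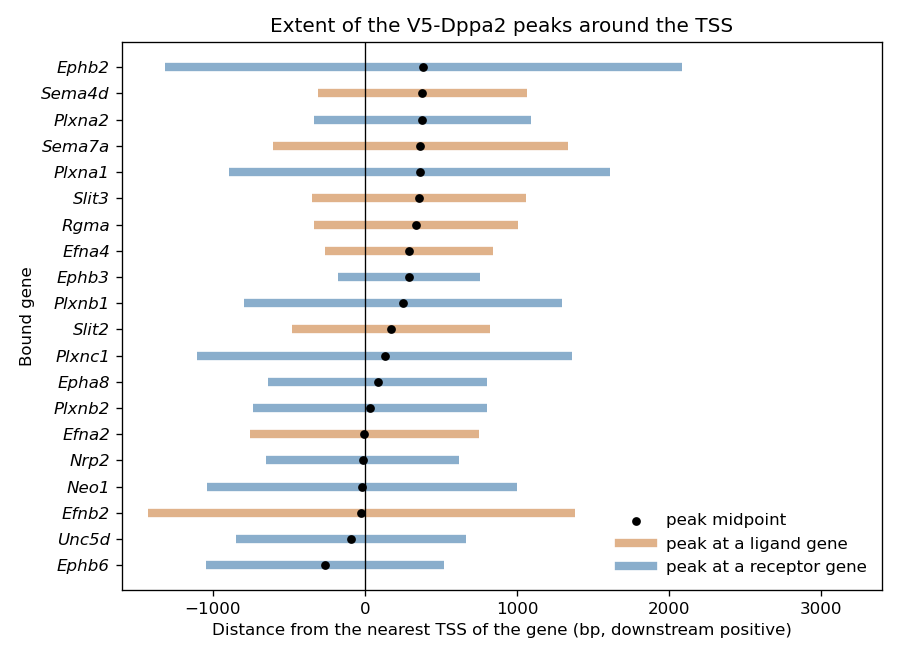
Extent of each peak in bp around the nearest TSS of the gene (0, with downstream positive), ordered by the position of the midpoint, which is marked by a black dot. All 20 peaks span the TSS, and the midpoints run from 263 bp upstream at Ephb6 to 383 bp downstream at Ephb2.

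In the median, bound guidance genes had promoters richer in GC and CpG than unbound ones. Over 1000 bp around the TSS shared by most transcripts, GC content had a median of 67.8% in the 20 bound entries (59.7 to 76.4%) and of 59.1% in the 56 unbound ones (46.9 to 76.0%). The ranges overlap widely. The observed-to-expected ratio of CpG had medians of 0.82 and 0.648. Both groups were above the respective medians of all protein-coding genes. Those were 0.776 for bound and 0.467 for unbound genes in CpG ratio, and 63.2% and 53.3% in GC content. The difference of bound and unbound genes was thus not particular to guidance genes, and in both quantities it was larger among all protein-coding genes. Bound and unbound guidance genes were alike in the median number of annotated TSSs, 3 in each.

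**Figure D4:**
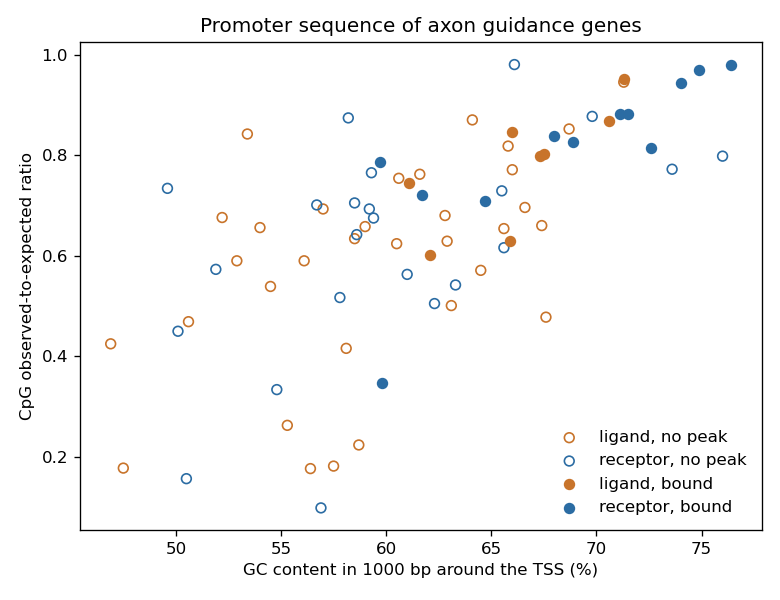
GC content in 1000 bp around the TSS (horizontal axis, percent) and observed-to-expected CpG ratio (vertical axis) of the 76 entries, filled for bound and open for unbound genes, orange for ligands and blue for receptors. Most bound genes lie at the upper right, with medians of 67.8% and 0.82, and unbound genes are found there too.

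Within CpG classes the bound share of guidance genes was highest at the highest ratio. At a ratio of 0.8 and above, 12 of 20 were bound (60.0%, 36.1 to 80.9%), where 31.2% of all protein-coding genes of the class were. At a score of at least 200 these numbers were 6 of 20 (30.0%, 11.9 to 54.3%) and 17.7%. From 0.6 to 0.8 the numbers were 7 of 32 (21.9%, 9.28 to 40.0%) and 17.8%. From 0.4 to 0.6 none of 15 guidance genes was bound (interval up to 21.8%), and 13.1% of all genes. Under 0.4, 1 of 9 was bound, Ephb3, whose peak lies at another start than the one used for the CpG ratio, and 3.68% of all genes. If each class of guidance genes had been bound at the share of all protein-coding genes in that class, 14.2 genes would have been bound instead of 20. As a share of the 76 entries, this lower count lies inside the interval of the bound share, 16.9 to 37.7%. The difference was not tested. When the TSS with the highest CpG ratio was used for each gene, the top class held 13 bound of 23 genes (56.5%, 34.5 to 76.8%) beside 29.7% of all genes.

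**Figure D5:**
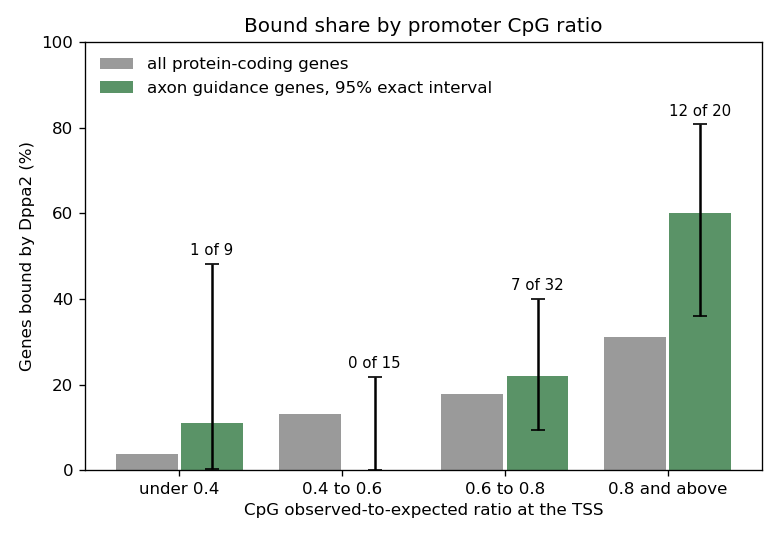
Percent of genes bound by Dppa2 in 4 classes of the CpG ratio at the TSS, for all protein-coding genes (grey) and the guidance genes (green, with 95% exact intervals and the numbers of genes). The share of guidance genes is highest, 60.0%, at a ratio of 0.8 and above, and the intervals are wide.

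A high CpG ratio did not go with a peak in every gene. In the class of 0.8 and above, Efna5, Epha7, Plxnd1, Rgmb, Sema3c, Sema6b, Sema6d and Unc5b were unbound. Unc5b, with the sequence given above, had a ratio of 0.98, equal to that of the bound Neo1, and its GC content was 66.1% against 76.4%. Unc5a had a GC content of 76.0% without a peak. Among the bound genes, the CpG ratio at the TSS showed no relation with the score (Spearman's correlation 0.012 over 20 genes, given as a description), as Plxna1 at 0.97 and Plxnc1 at 0.943 had the highest and nearly the lowest score. Counted over 300 bp, 12 of the 20 genes had fewer CpGs at the peak midpoint than at the TSS and 8 had more. At 7 of the 20 the midpoint lay within 100 bp of the TSS, so that these windows overlap widely. The split was not tested.

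Genes that act with or downstream of these ligands and receptors were examined as lists of pathway members. Of 62 entries for co-receptors and modulators, 16 were bound (25.8%, 15.5 to 38.5%), beside 14.2% of all protein-coding genes. At a score of at least 200, 7 of the 62 were left, beside 8.06% of all protein-coding genes. The 16 bound genes included Dscam, a netrin co-receptor (score 617), Odz2, a teneurin (522), the Lrig genes Lrig3 (385), Lrig2 (150) and Lrig1 (103), and Fzd3, which guides axons in response to Wnt (321). The hedgehog signal receiver Smo (319) and the hedgehog co-receptors Cdon (309) and Boc (170) also had peaks. The remaining bound genes were Gpc1 (270), Dag1 (192), Met (174), Crtac1 (172), Nell2 (166), Rtn4r (140) and Sdc1 (111).

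Of 70 entries listed as effectors, most of which pass the signal on inside the cell, 26 were bound (37.1%, 25.9 to 49.5%). At a score of at least 200, 12 of the 70 were left, beside 8.06% of all protein-coding genes. Rock2, a kinase that acts on actin and myosin, had the highest score (658), followed by the guanine nucleotide exchange factor Vav2 (478), the actin regulator Evl (403), the Ras GTPase-activating protein Rasa1 (343) and Srgap1, a Robo-binding GTPase-activating protein (330). Further exchange factors with peaks were Dock1 (233), Tiam1 (180), Ngef (168), Farp1 (145), Trio (140), the plexin B partner Arhgef12 (135) and Sos2 (120). The actin-linked genes Ablim3 (312), Mical2 (229) and Ablim1 (120), the adaptor Nck2 (212), the netrin pathway genes Trim9 (213), Pitpna (206) and Ptk2 (161), and the GTPase Cdc42 (116) were bound as well. The others were Rap1gap (207), Fes (175), Chn2 (168), Dpysl4 (132), Sipa1l1 (102) and Itgb1 (113), an integrin subunit that spans the membrane. Both lists were compiled with earlier results of these data known, so their shares are given beside the 14.2% of all protein-coding genes as a description.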

How the data were processed

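Anti-V5 ChIP-seq peaks of CGR8 mouse ESCs expressing V5-Dppa2 were analysed (1 library); the other 5 samples of the series were not analysed here. The score of each peak was deposited by the authors and is the −log10 of the p-value from MACS against the untagged control, times 10. The submitters' processing notes name Bowtie 0.12.7, Picard 1.81, MACS 1.4.2 and mm9. Per the paper's methods, low-complexity reads and duplicates were removed and the best alignment of each read was kept. The list holds peaks at TSSs without summits, so midpoints were used, and its starts were read as counted from 0.

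Each midpoint was placed relative to every annotated TSS of GENCODE M1. GC content and the CpG ratio were taken from mm9 over 1000 bp around the TSS shared by most transcripts. Python 3.11.15 with numpy 2.4.6, pandas 2.3.3 and scipy 1.17.1 was used. The linking of peak midpoints to TSSs was checked on simulated peaks and the CpG count on a made-up sequence. The other steps were not checked in this way. The members and lists were chosen with earlier results of these data known. All bound members and bound pathway genes are named. Promoter sequences are shown for the lowest-scoring bound member, the 2 unbound members of the highest CpG ratio and Neo1; that of the highest-scoring bound member is not reported here. Unbound members are named by family, with the distance to the nearest midpoint for those within 10 kb, for partners of bound genes and for some others. Alternatives were a stricter score, other windows, any base of the peak, other TSSs and merged peaks.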

Additional observations from a re-analysis of the deposited data

How the results depend on the processing

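With peaks of a score of at least 200 only, 11 guidance genes were bound instead of 20, with 4 ligand genes and 7 receptor genes, and the genes lost were Efna4, Efnb2, Epha8, Ephb3, Plxnb2, Plxnc1, Rgma, Slit2 and Unc5d. The bound co-receptors and modulators fell to 7 and the bound effectors to 12, the share of all protein-coding genes to 8.06%, pairs with both genes bound from 7 to 1, the bound share in the highest CpG class from 60.0% to 30.0%, and the median position moved from 210 to 354 bp downstream of the TSS. Over a sequence window of 2000 bp, the difference of bound and unbound guidance genes was 0.107 in CpG ratio instead of 0.172, and 4.17 percentage points in GC content instead of 8.65. The other 37 values were within 1.5 times the reported value. They covered windows of 500 and 2000 bp, any base of the peak, other TSSs, merged peaks and, for GC and CpG content, the stricter score. With 1 TSS per gene the number of bound guidance genes was 19, and with the other windows, any base of the peak and merged peaks it was 20. The windows could not change it, as bound genes lay within 383 bp of a midpoint and unbound ones at 4602 bp or more. Counting each symbol once, using the TSS of the highest CpG ratio, and the pairs and CpG class at the stricter score were chosen after seeing the data. No paired analysis was possible because the peak list comes from 1 library and no test was run, and no replicate could be left out.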

Other observations

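Peaks also lay inside 3 guidance genes away from the gene's own TSS, each near the annotated start of another gene, which follows from the list holding peaks at TSSs. These peaks were singled out after their values were seen. Slit3 holds the gene of the microRNA Mir218-2 in an intron on the same strand, at chr11:35430318-35430427. A peak of 975 bp at chr11:35429889-35430863, with a score of 321 and rank 991, had its midpoint 58 bp from the annotated 5′ end of this hairpin, which is no transcription start, and 72.2 kb from the nearest TSS of Slit3, and its score was higher than that of the Slit3 promoter peak, 222. Slit2 holds the related Mir218-1 in an intron, at chr5:48615181-48615290, and there the nearest midpoint was 241 kb away. Both hairpins give the same 5p microRNA, while their 3p arms differ. The sequences are from RefSeq (GRCm38.p6), 5′ to 3′, with the seed (bases 2 to 8) in capitals.
mmu-miR-218-5p: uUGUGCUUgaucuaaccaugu
mmu-miR-218-2-3p: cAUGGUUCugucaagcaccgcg
mmu-miR-218-1-3p: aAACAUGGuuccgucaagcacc

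The Epha10 gene holds a peak at chr4:124571229-124572860 with a score of 265, whose midpoint was 18 bp from the TSS of the non-coding transcript 1700125G02Rik on the opposite strand and 4602 bp from the nearest TSS of Epha10. The peak nearest to Ntn5, at chr7:52948924-52949957, had a score of 761 and rank 113, and its midpoint was 332 bp from the TSS of Sec1 on the opposite strand. At 2 of the 20 bound genes the peak also lay within 1000 bp of the TSS of a long non-coding RNA on the opposite strand. These were 4731419I09Rik beside Efna4, with TSSs 178 bp apart, and A730056A06Rik beside Rgma, with TSSs 219 bp apart. The midpoint was 111 bp from the first and 116 bp from the second non-coding start, compared with 289 bp for Efna4 and 335 bp for Rgma. Which of the transcripts a peak belongs to cannot be told apart by position. The other 18 bound genes had no TSS of another gene within 1000 bp of the midpoint.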
